A study of Mus musculus with 12 samples.

Results

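The genes described here are 54 genes of the cell division cycle, taken by their gene names from a table of 52636 genes measured in mouse kidney. They comprise the factors that license and unwind replication origins, the enzymes that supply and copy DNA, the cyclins with their kinases, the mitotic machinery, the E2F and retinoblastoma proteins, and 4 inhibitors of cyclin-dependent kinases. Every name was found in the table. RNA sequencing gave 12 kidney libraries in 4 groups of 3, all from male wild-type C57BL/6 mice aged 8 weeks. The cisplatin+PCN group received pregnenolone 16alpha-carbonitrile (PCN, a synthetic steroid and agonist of the pregnane X receptor in rodents) by gavage at 40 mg/kg daily for 4 days, then a single intraperitoneal injection of cisplatin at 20 mg/kg, with PCN continued for 3 days. The cisplatin group received corn oil in place of PCN with the same injection, the PCN group received PCN with saline in place of cisplatin, and the control group received corn oil and saline. Kidneys were taken 4 days after cisplatin. The treatment text lists the cisplatin group both among the animals given PCN and among those given corn oil, so groups were taken from the sample titles. The labels do not say whether each library is a separate animal, and p-values therefore reflect the variation among libraries only.

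A dividing cell licenses its origins in G1 by loading the MCM helicase, fires them in S phase, and then uses cyclin B with Cdk1 to enter mitosis, which ends when the anaphase-promoting complex destroys securin and cyclin B. Retinoblastoma-family proteins hold E2F factors in check until cyclin D and cyclin E kinases phosphorylate them, and inhibitors of those kinases act as brakes. Most tubule cells of the adult kidney are out of cycle. Cisplatin crosslinks DNA and injures the proximal tubule, after which surviving tubule cells are known to re-enter the cycle.

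The deposited values are FPKM, reads divided by gene length and by a scale factor per library. The depth ran from 18914607 to 26530485 assigned reads per library. The scale factor was not the assigned-read total: the total per unit of the factor ran from 0.903 to 1.05 over the cisplatin+PCN libraries, 0.923 to 0.982 over the cisplatin libraries, 1.02 to 1.04 over the PCN libraries and 1.02 to 1.03 over the control libraries. Changes are given on the scale of log2(FPKM + 1), tested with limma across all 19465 genes with a mean of at least 0.1 FPKM over the 12 libraries, and called at a Benjamini-Hochberg adjusted p under 0.05. Of the 54 genes, 51 reached that mean, and Bub1, Cenpf and Cdkn2a did not. Adding 1 to the FPKM shrinks the change of a gene well under 1 FPKM. For some such genes the log2 change of the reads, from limma-voom, or the FPKM itself is given as well. Along the first principal component of all tested genes, which held 75.75% of the variance, the cisplatin+PCN libraries scored 22.4, 41.4 and 29.7, the cisplatin libraries 52.2 to 64.2, the PCN libraries -45.8 to -44.3, and the control libraries -44.5 to -42.9. Replicate 1 of cisplatin+PCN, the nearest of that group to the groups without cisplatin, was also the lowest of its group in 33 of the 51 tested cell cycle genes. How often it was the lowest over all tested genes was not counted.

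In control kidneys 29 of the 54 genes averaged at least 1 FPKM and 50 at least 0.1 FPKM. Per length, the most abundant were Ccnd1 at 33.5 ± 4.14 FPKM, Pcna at 19.4 ± 1.20 FPKM, Cdk4 at 17.6 ± 1.55 FPKM, Stmn1 at 11.99 ± 0.630 FPKM and Cdkn1b at 11.5 ± 1.30 FPKM (SD, n = 3). In that order the libraries of the neighbours Pcna and Cdk4 overlapped, as did those of Stmn1 and Cdkn1b. The genes of mitosis were low, from 0.0571 FPKM for Bub1 to 0.715 FPKM for Cdc20, and Cdk1 averaged 0.163 FPKM. Only 1 tested gene, Cdc25c, averaged under 0.1 FPKM in control, and it reached the minimum through the groups given cisplatin. Over the tested genes the median depth was 142.5 reads per library.

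With cisplatin against control, 34 of the 51 tested genes rose and 4 fell, beside 26.3% of all tested genes that rose and 25.9% that fell. The median change was 0.43 on the log2(FPKM + 1) scale, and 0.83 as log2 reads, against 0.00445 over all tested genes on the first scale. The genes that rose were 66.7% of those tested, and 33 of 50 without Cdc25c. Scaled to assigned reads, which moved the median of all tested genes to 0.05, 35 rose and 2 fell. In 34 genes every cisplatin library lay above every control library, and in 3 every one lay below. This separation was not counted over all tested genes, so its background share is unknown. Between PCN and control, where 0 of the 51 were called, 3 lay wholly above and 6 wholly below. Genes rose in each role: 6 of 10 origin factors, 4 of 6 genes of nucleotide supply and DNA synthesis, 4 of 8 genes of the G1 cyclins and kinases, 5 of 6 of the later cyclins with Cdk1 and its phosphatases, 8 of 9 tested mitotic genes, 3 of 3 proliferation and microtubule genes, 3 of 6 E2F, Foxm1 and retinoblastoma genes, and 1 of 3 tested kinase inhibitors. The 4 genes that fell were Tyms, Ccnd2, Ccnd3 and Rbl1, of which Tyms and Rbl1 did not pass when scaled to assigned reads (limma adjusted p = 0.117 and 0.0679). In whole tissue, more cycling cells and more of these transcripts per cell cannot be told apart.

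**Figure D1:**
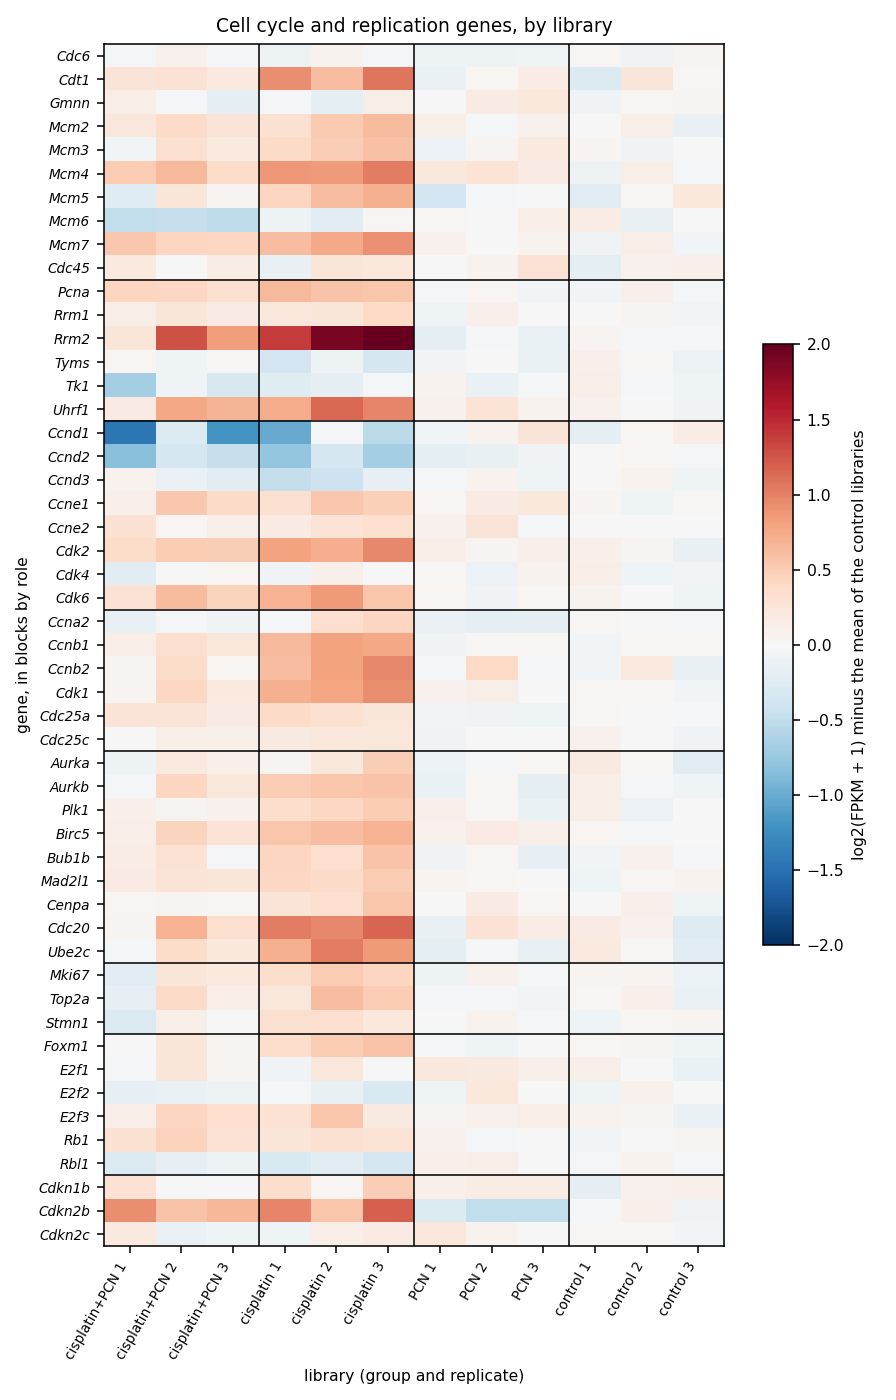
Each row is 1 of the 51 tested genes, in blocks by role, and each column a library. Colour gives log2(FPKM + 1) minus the mean of the 3 control libraries, so red is above and blue below control. Rrm2 is the darkest red row, with 5.66 to 9.81 FPKM in the cisplatin libraries against 1.47 to 1.62 FPKM in the control libraries.

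Promoters of the 6 genes with the largest changes in log2(FPKM + 1) among those called with cisplatin and matched to a promoter are shown because promoters of cell cycle genes are known to carry E2F words, the cell cycle homology region (CHR) and CCAAT boxes. They are the RefSeq windows of build GRCm38.p6, 250 bases before to 50 bases after the start, written 5′ to 3′ on the gene's strand, with capitals marking any E2F, CHR or CCAAT word found on either strand.
Rrm2, chr12:24708004-24708303, plus strand: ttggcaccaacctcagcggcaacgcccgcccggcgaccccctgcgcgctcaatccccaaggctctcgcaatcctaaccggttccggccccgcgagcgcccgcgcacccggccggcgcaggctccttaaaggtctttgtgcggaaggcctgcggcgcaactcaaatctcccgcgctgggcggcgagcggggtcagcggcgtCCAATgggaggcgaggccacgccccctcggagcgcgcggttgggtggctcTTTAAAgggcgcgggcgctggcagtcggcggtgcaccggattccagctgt
Cdc20, chr4:118437294-118437593, minus strand: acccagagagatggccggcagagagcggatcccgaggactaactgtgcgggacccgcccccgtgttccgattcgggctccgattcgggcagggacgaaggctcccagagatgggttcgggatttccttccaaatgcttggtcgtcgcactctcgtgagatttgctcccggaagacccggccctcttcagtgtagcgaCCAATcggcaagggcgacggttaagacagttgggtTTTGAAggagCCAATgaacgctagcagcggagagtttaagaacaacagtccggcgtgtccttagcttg
Uhrf1, chr17:56303087-56303386, plus strand: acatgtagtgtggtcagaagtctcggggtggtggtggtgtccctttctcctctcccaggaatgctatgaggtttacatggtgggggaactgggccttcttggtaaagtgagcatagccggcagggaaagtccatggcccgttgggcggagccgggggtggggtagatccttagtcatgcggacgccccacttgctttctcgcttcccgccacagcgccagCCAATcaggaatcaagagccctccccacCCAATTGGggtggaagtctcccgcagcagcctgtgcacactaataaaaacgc
Cdkn2b, chr4:89310983-89311282, minus strand: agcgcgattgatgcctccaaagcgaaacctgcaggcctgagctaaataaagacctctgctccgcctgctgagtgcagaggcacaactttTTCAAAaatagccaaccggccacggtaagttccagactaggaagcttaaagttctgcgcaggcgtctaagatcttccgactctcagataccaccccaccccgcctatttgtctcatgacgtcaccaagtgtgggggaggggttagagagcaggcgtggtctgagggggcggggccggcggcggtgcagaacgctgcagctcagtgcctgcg
Cdt1, chr8:122567765-122568064, plus strand: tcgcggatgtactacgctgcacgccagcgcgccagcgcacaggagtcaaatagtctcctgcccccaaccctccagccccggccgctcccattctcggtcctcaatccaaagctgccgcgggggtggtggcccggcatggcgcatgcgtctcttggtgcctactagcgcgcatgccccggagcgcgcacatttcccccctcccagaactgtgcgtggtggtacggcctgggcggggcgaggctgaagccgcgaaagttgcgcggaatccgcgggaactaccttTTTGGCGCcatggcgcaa
Ube2c, chr2:164769679-164769978, plus strand: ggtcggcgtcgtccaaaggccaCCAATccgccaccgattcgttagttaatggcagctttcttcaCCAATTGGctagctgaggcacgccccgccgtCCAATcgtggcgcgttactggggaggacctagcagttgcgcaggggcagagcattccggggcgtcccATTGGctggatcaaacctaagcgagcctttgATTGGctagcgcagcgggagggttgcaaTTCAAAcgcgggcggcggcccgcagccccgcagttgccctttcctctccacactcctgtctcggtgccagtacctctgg
The Cdc20 promoter holds the CHR word TTTGAA 18 bases before the start with CCAAT boxes at 53 and 8 bases before it, and the Rrm2 promoter holds TTTAAA at the start itself with a CCAAT box 50 bases before it. Ube2c has the CHR word on the other strand, read as TTCAAA, 29 bases before the start, with 6 CCAAT boxes farther upstream. The Cdt1 promoter holds the E2F word TTTGGCGC 32 bases after the start and neither other word. Uhrf1 has only CCAAT boxes, and Cdkn2b only a CHR word, 161 bases before the start.

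The words searched on both strands were TTTCCCGC, TTTCGCGC, TTTGCCGC and TTTGGCGC for E2F, TTTGAA and TTTAAA for the CHR, and CCAAT. RefSeq promoters were matched for 43 of the 54 genes, giving 50 promoters; the genes not matched were Gmnn, Mcm4, Ccnd1, Ccnd2, Ccne2, Ccna2, Cdc25c, Aurkb, Stmn1, Foxm1 and Rb1. Overlapping matches were each counted, as in CCAATTGG, where a CCAAT box is read on both strands. Among the 30 promoters of genes that rose with cisplatin, 30% held an E2F word, 60% a CHR word and 76.67% a CCAAT box, while the shares over all 32851 promoters of the same length were 2.26%, 27.59% and 37.41%. Of the 16 promoters of genes not called or not tested, 25.0% held an E2F word, 37.5% a CHR word and 62.5% a CCAAT box. In the 4 promoters of genes that fell, these shares were 25.0%, 0% and 25.0%. By role, an E2F word stood in 6 and a CHR word in 3 of 9 origin factor promoters. Those counts were 1 and 3 of 7 for nucleotide supply and DNA synthesis, 1 and 1 of 6 for the G1 genes, and 2 and 3 of 4 for the later cyclins, Cdk1 and phosphatases. They were 0 and 8 of 10 for the mitotic genes, 0 and 2 of 2 for the proliferation and microtubule genes, 3 and 2 of 6 for the transcriptional regulators, and 1 and 2 of 6 for the inhibitors. Differences between roles were not tested. A match describes letters in this window and says nothing of binding.

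Among the origin factors, Cdt1, which brings the MCM helicase to origins, rose with cisplatin. It had 3.46, 2.59 and 3.90 FPKM in the cisplatin libraries, against 0.936, 1.77 and 1.38 FPKM in the control libraries, and the groups did not overlap. The change was 0.87 ± 0.14 (log2, SE; limma adjusted p = 0.000469). Mcm4, a subunit of the helicase, measured 4.65, 4.54 and 5.29 FPKM with cisplatin, against 1.86, 2.37 and 2.04 FPKM in control. That difference was 0.91 (limma adjusted p = 1.42e-05), again with no overlap. Mcm5 rose by 0.58 ± 0.16, with 2.12, 2.56 and 2.80 FPKM in cisplatin libraries against 0.977, 1.37 and 1.68 FPKM in control libraries. Mcm2 also rose, to 2.81, 3.41 and 3.78 FPKM with cisplatin against 2.11, 2.38 and 1.78 FPKM in control, a change of 0.48 (limma adjusted p = 0.00231). The rises of Mcm3 and Mcm7 were 0.49 and 0.76.

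Mcm6 belongs to the same helicase ring but did not pass. Its level was 5.01 ± 0.545 FPKM with cisplatin against 5.44 ± 0.656 FPKM in control (SD, n = 3 each), a difference of -0.10, and in control it was the most abundant of these subunits per length. Geminin (Gmnn), which binds and blocks Cdt1, showed -0.03, and the helicase activator Cdc45 showed 0.10. Cdc6, which loads MCM together with Cdt1, lay near the detection limit at 0.0795 to 0.215 FPKM with cisplatin against 0.101 to 0.197 FPKM in control, with a difference of -0.02. None of these 4 passed the test.

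Rrm2, the regulated small subunit of ribonucleotide reductase, had the largest change of the 51 genes on the log2(FPKM + 1) scale, while as log2 reads its 2.36 came after Ccnb1, Cdk1 and Cdc25c. Its level was 5.66, 8.45 and 9.81 FPKM in cisplatin libraries, against 1.62, 1.47 and 1.5 FPKM in control libraries, and every cisplatin library lay far above every control. The change was 1.80 ± 0.23 (log2, SE; limma adjusted p = 8.09e-05). Rrm1, the large subunit, moved much less, by 0.29 (limma adjusted p = 0.00911). Pcna, the sliding clamp of the replication fork, gave 31.0, 29.1 and 29.0 FPKM with cisplatin against 18.6, 20.7 and 18.8 FPKM in control, a rise of 0.59 ± 0.06 (limma adjusted p = 1.78e-05). Uhrf1, which guides maintenance methylation of new DNA, rose by 0.96, and by 2.13 as log2 reads. Tyms, thymidylate synthase, fell by 0.27 (limma adjusted p = 0.0321), and the thymidine kinase Tk1 differed by -0.15 without passing.

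The G1 genes were split. The D cyclins, which switch on Cdk4 and Cdk6, were lower or not called, whereas the E cyclins and Cdk2 rose. Ccnd2 had 0.823, 1.46 and 0.948 FPKM in the cisplatin libraries, against 2.12, 2.19 and 2.04 FPKM in the control libraries, with no overlap, and fell by 0.60 (limma adjusted p = 0.00334). Ccnd3 fell by 0.35. Ccnd1, the most abundant cyclin here per length, had 16.1, 32.6 and 22.7 FPKM with cisplatin against 29.0, 34.3 and 37.1 FPKM in control; replicate 2 of cisplatin lay inside the control range, and the difference of -0.52 ± 0.29 did not pass (limma adjusted p = 0.159). Ccne1 measured 0.449, 0.683 and 0.607 FPKM with cisplatin against 0.201, 0.0988 and 0.185 FPKM in control. Those groups were apart, and the rise was 0.44 (limma adjusted p = 0.00554), or 1.85 as log2 reads. Cdk2 rose by 0.83 and Cdk6 by 0.70, while Cdk4 was level, at 16.6, 19.0 and 17.6 FPKM with cisplatin against 19.4, 16.5 and 17.0 FPKM in control, a difference of 0.01 ± 0.09 (limma adjusted p = 0.942).

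The cyclin B genes and Cdk1, which drive entry into mitosis, were barely detected in control kidneys and rose with cisplatin to low but countable levels. Ccnb1 had 59, 91 and 101 reads in the cisplatin libraries, against 5, 12 and 12 reads in the control libraries. In FPKM these were 0.727, 0.934 and 0.879 with cisplatin against 0.0634, 0.125 and 0.127 in control, wholly apart, and the change was 0.74 ± 0.07 (log2, SE; limma adjusted p = 9.69e-06), or 2.97 as log2 reads. Cdk1 had 0.905, 1.0 and 1.21 FPKM with cisplatin against 0.184, 0.187 and 0.118 FPKM in control, rising by 0.81, or by 2.67 as log2 reads. Ccnb2 gave 1.26, 1.56 and 1.87 FPKM with cisplatin against 0.419, 0.687 and 0.321 FPKM in control, a rise of 0.80 (limma adjusted p = 0.00119). The phosphatase Cdc25a, which activates these kinases, rose by 0.32. Cdc25c, of the same family, had 7, 10 and 12 reads with cisplatin against 4, 2 and 0 reads in control; its 0.21 passed, but it was tested only because of its level in the groups given cisplatin. Ccna2, cyclin A of S and G2 phases, had 0.420 to 0.953 FPKM with cisplatin against 0.416 to 0.471 FPKM in control, which overlapped, and its 0.24 did not pass (limma adjusted p = 0.0684).

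Of the 9 tested mitotic genes 8 rose, the largest share of the roles with more than 3 genes. Cdc20, the activator of the anaphase-promoting complex, had 2.47, 2.32 and 2.81 FPKM in the cisplatin libraries, against 0.916, 0.798 and 0.431 FPKM in the control libraries. Its rise of 1.05 ± 0.17 (limma adjusted p = 0.000421) was exceeded among the 51 genes by Rrm2 alone on this scale. Ube2c, the ubiquitin-conjugating enzyme of that complex, had 1.22, 1.78 and 1.45 FPKM with cisplatin against 0.555, 0.388 and 0.172 FPKM in control, a rise of 0.86, or 2.13 as log2 reads. Both genes were apart in every library. Survivin (Birc5), of the chromosomal passenger complex, rose by 0.62 and Aurkb of the same complex by 0.54. The spindle checkpoint genes Bub1b and Mad2l1 rose by 0.45 and 0.43, the mitotic kinase Plk1 by 0.43 and the centromeric histone Cenpa by 0.39. Means with cisplatin against control, in FPKM, were 0.792 against 0.163 for Birc5, 0.693 against 0.166 for Aurkb and 0.839 against 0.345 for Bub1b. They were 1.23 against 0.653 for Mad2l1, 0.656 against 0.235 for Plk1 and 0.724 against 0.316 for Cenpa. Aurka, the centrosomal kinase, differed by 0.25 without passing (limma adjusted p = 0.135). Of the untested pair, the checkpoint kinase Bub1 had 11, 15 and 26 reads with cisplatin against 4, 6 and 6 reads in control, and the kinetochore gene Cenpf had 22, 40 and 45 reads against 30, 23 and 7 reads.

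The classical proliferation markers rose from a low level. Mki67 had 0.671, 0.865 and 0.766 FPKM with cisplatin against 0.367, 0.366 and 0.213 FPKM in control, with a change of 0.43 (limma adjusted p = 0.00895), or 1.32 as log2 reads. Top2a, the topoisomerase that untangles sister chromatids, had 0.496, 0.951 and 0.810 FPKM with cisplatin against 0.308, 0.360 and 0.159 FPKM in control, with a change of 0.45 (limma adjusted p = 0.0158), or 1.49 as log2 reads. Neither pair of groups overlapped. Stmn1, which destabilises microtubules and is expressed outside mitosis as well, rose by 0.29 (limma adjusted p = 0.0243).

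Transcriptional regulators differed among themselves. Foxm1, which drives G2 and mitotic genes, had 0.515, 0.692 and 0.772 FPKM in the cisplatin libraries, against 0.223, 0.236 and 0.117 FPKM in the control libraries, and rose by 0.48 (limma adjusted p = 0.000774), or by 1.83 as log2 reads. E2f1 overlapped between groups, with 0.939, 1.39 and 1.06 FPKM with cisplatin against 1.22, 1.06 and 0.865 FPKM in control, and its 0.05 did not pass (limma adjusted p = 0.69). E2f3 rose by 0.34, and E2f2 differed by -0.16 without passing. The retinoblastoma gene Rb1 had 7.46, 7.88 and 7.68 FPKM with cisplatin against 5.89, 6.20 and 6.49 FPKM in control, a small rise of 0.27 with separate groups. Its relative Rbl1 fell by 0.28.

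**Figure D2:**
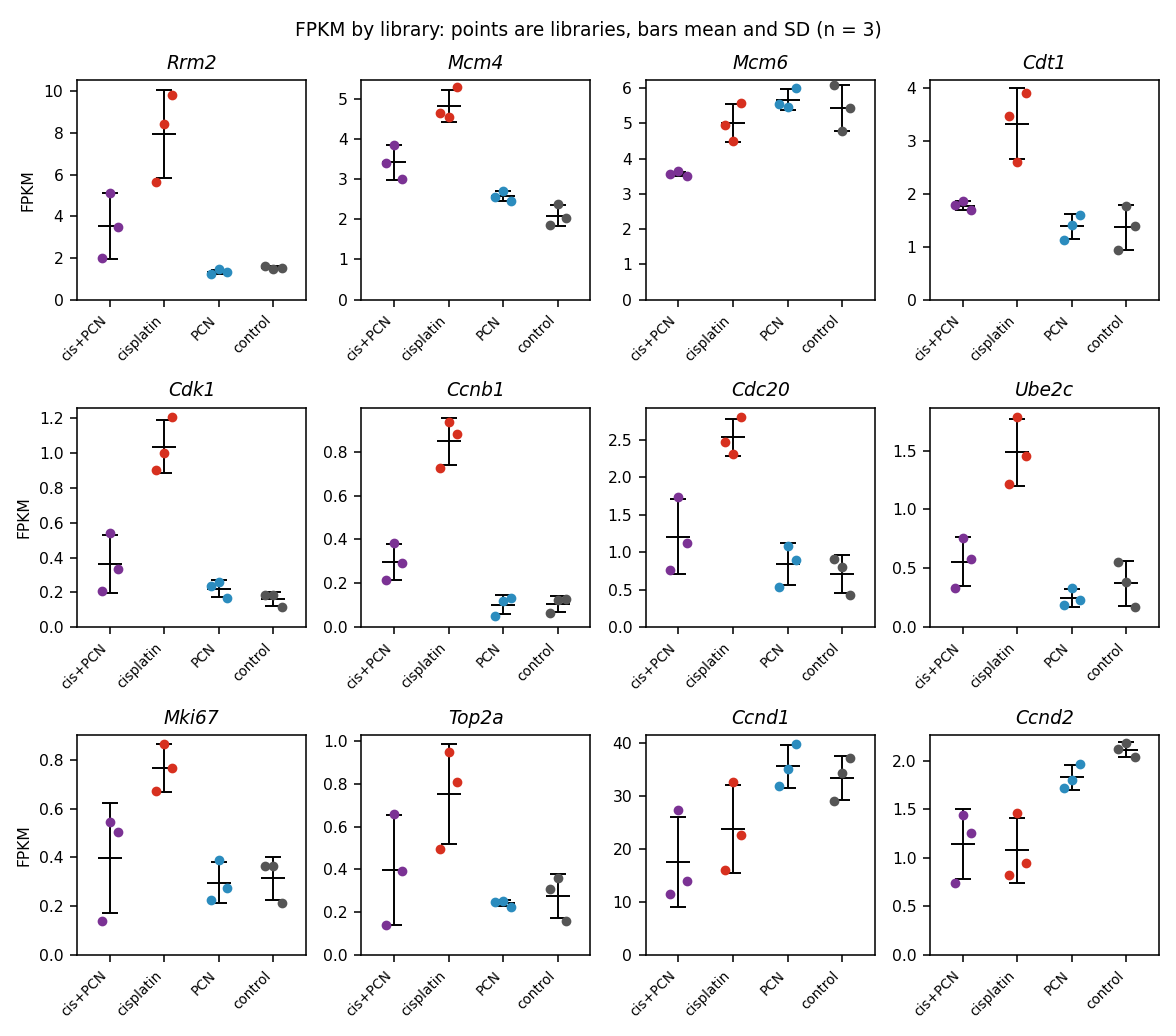
FPKM of 12 genes by group, with 1 point per library and bars for the mean and SD of 3 libraries; each panel has its own axis from 0. In 9 panels cisplatin lies above control without overlap, as for Ccnb1 at 0.727 to 0.934 FPKM against 0.0634 to 0.127 FPKM, while Mcm6 and Ccnd1 overlap and Ccnd2 is below.

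Of the inhibitors, Cdkn2b, which blocks Cdk4 and Cdk6, rose. It had 6.26, 4.41 and 7.46 FPKM with cisplatin against 2.61, 2.93 and 2.5 FPKM in control, a change of 0.91 (limma adjusted p = 0.000478). Cdkn2a, which encodes Ink4a and Arf, had at most 3 reads in any library and was not tested. Cdkn1b, which restrains cyclin E with Cdk2, had 14.9, 11.7 and 16.6 FPKM with cisplatin against 10.01, 12.2 and 12.3 FPKM in control, and its 0.29 did not pass (limma adjusted p = 0.0709). Cdkn2c was level at 4.72, 5.66 and 5.81 FPKM with cisplatin against 5.15, 5.17 and 4.84 FPKM in control, a difference of 0.07. The inhibitor with by far the highest level in cisplatin kidneys was Cdkn1a, the p53 target outside the 54, at 315 ± 24.5 FPKM with cisplatin against 2.12 ± 0.119 FPKM in control (SD, n = 3 each), a change of 6.66. Cdkn2d rose by 0.51 and Cdkn1c fell by 0.67.

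**Figure D3:**
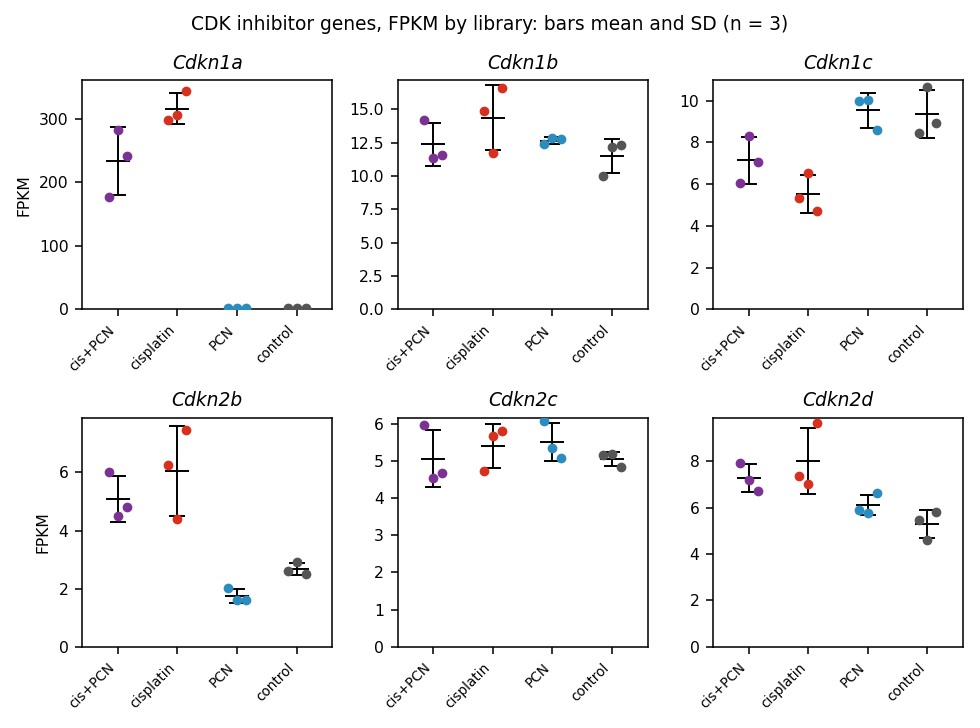
FPKM of 6 inhibitor genes of cyclin-dependent kinases by group, with 1 point per library and bars for the mean and SD of 3 libraries; axes start at 0 and differ between panels. Cdkn1a reached 177 to 343 FPKM in the libraries with cisplatin and 2.0 to 2.67 FPKM in those without, while Cdkn2b spanned 4.41 to 7.46 FPKM with cisplatin and 1.61 to 2.93 FPKM without.

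Further genes of the cycle, drawn from 6 lists of 109 genes of which 102 were tested, gave 50 that rose and 14 that fell with cisplatin against control. Mitotic kinesins, spindle, kinetochore and condensin genes were the most uniform, with 26 higher and 1 lower of 38. Ckap2, a spindle protein, rose by 1.84 and the centrosomal kinase Nek2 by 1.45, while the kinesin Kif20b fell by 1.69. DNA polymerase, clamp loader and fork genes gave 5 higher and 5 lower of 21, each 23.8% and near the background of 26.3% and 25.9%. Among them were the single-strand binding subunit Rpa2 with a rise of 0.92 and the primase subunit Prim1, which fell by 0.61. Origin recognition and firing genes gave 6 higher and 1 lower of 14, among them Gins2, Gins1 and Dbf4 with rises of 0.96, 0.95 and 0.62. Entry and checkpoint genes gave 8 higher and 3 lower of 16, led by cyclin G1 (Ccng1, 1.95), the Cdk subunit Cks1b (1.78) and cyclin G2 (Ccng2, 0.90). The E2F and DREAM complex genes, also near the background, gave 3 higher and 3 lower of 10, where E2f6 and E2f5 fell by 0.56 and 0.51 and Lin54 rose by 0.50. Of the 3 other inhibitors, 2 rose and 1 fell.

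Markers of other cells moved with these groups. Summed over the list, neutrophil genes were at 21.5 to 34.5 FPKM in cisplatin libraries against 2.60 to 3.85 FPKM in control libraries, with 4 of 4 tested genes higher and Mpo at 0 in all 12 libraries. Macrophage and monocyte genes summed to 152 to 183 FPKM with cisplatin against 80.3 to 97.5 FPKM in control. Of 11 tested, 3 were higher (Cd68, Itgam, Cd14) and 3 lower (Ptprc, Csf1r, Cx3cr1). Cd14 alone had 57.1, 44.1 and 96.6 FPKM of these sums with cisplatin, against 3.54, 3.96 and 3.21 FPKM in control. Fibroblast and pericyte genes summed to 58.4 to 70.0 FPKM with cisplatin against 28.1 to 52.0 FPKM in control, with 4 of 7 higher. Lymphocyte genes were lower in 4 of 5 tested, at 0.266 to 0.570 FPKM against 2.0 to 2.26 FPKM in control, and erythroid genes in 5 of 5, at 0.519 to 6.94 FPKM against 318 to 1187 FPKM in control. Endothelial genes gave 1 higher and 1 lower of 5. Of the 10 kidney genes, 8 were at 5.30 FPKM or more in every library, Nphs1 was at 2.87 to 4.65 FPKM, and the injury marker Havcr1 was under 1 FPKM in the libraries without cisplatin. With cisplatin 6 of the 10 were lower and Havcr1 was higher. The part of these cells in the cell cycle changes was not tested.

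Of the 38 genes called with cisplatin against control, 32 stayed called whichever of the 6 libraries was left out. Ccne2, Cdc25c, Top2a, Stmn1, E2f3 and Tyms did not, with adjusted p-values up to 0.112, 0.0548, 0.0617, 0.0826, 0.0902 and 0.114. A minimum mean of 1 FPKM tests 29 of the genes and called 17 of them higher.

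PCN alone changed none of the 51 genes detectably. Against control, limma called 0 higher and 0 lower, as it did over all tested genes (0% higher and 0% lower). Limma-voom likewise called 0. Over all tested genes 778 of 19465 had an unadjusted p under 0.05. Of the 51, 1 gene in each direction did. These were Cdkn2b, at 2.04, 1.61 and 1.63 FPKM with PCN against 2.61, 2.93 and 2.5 FPKM in control, with a difference of -0.42, and Mcm4, at 2.56, 2.71 and 2.46 FPKM with PCN against 1.86, 2.37 and 2.04 FPKM in control, with a difference of 0.21. The median difference was 0.02 over the 51 genes. Mki67 was at 0.226, 0.390 and 0.276 FPKM with PCN against 0.367, 0.366 and 0.213 FPKM in control, and Rrm2 at 1.21, 1.45 and 1.32 FPKM against 1.62, 1.47 and 1.5 FPKM. A small change would not be detectable with 3 libraries a group.

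With cisplatin+PCN against cisplatin, 16 of the 51 genes fell and 0 rose, beside 4.42% of all tested genes that fell and 4.34% that rose. At an unadjusted p under 0.05 there were 27 lower and 2 higher, beside 5186 of all 19465 tested genes in either direction. Limma-voom called 17 lower and 0 higher, beside 2264 of all tested genes in either direction. The median difference was -0.25, against 0 over all tested genes. The cisplatin+PCN libraries lay wholly below the cisplatin libraries in 24 genes and wholly above in 1, Tyms. How often all tested genes separate in this way was not counted. The genes that fell were Cdt1, Mcm4, Mcm5 and Mcm6 of the origin factors, Rrm2, Cdk2, the cyclin B genes with Cdk1, 5 mitotic genes (Plk1, Birc5, Cenpa, Cdc20 and Ube2c), Stmn1 and Foxm1. This comparison shares its cisplatin libraries with the one against control.

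Ccnb1 and Cdk1 had the smallest adjusted p-values of the 16. Ccnb1 had 0.217, 0.382 and 0.290 FPKM in cisplatin+PCN libraries, against 0.727, 0.934 and 0.879 FPKM in cisplatin libraries, a difference of -0.51 ± 0.07 (log2, SE; limma adjusted p = 0.00637), or -1.53 as log2 reads. Cdk1 had 0.210, 0.541 and 0.336 FPKM with cisplatin+PCN against 0.905, 1.0 and 1.21 FPKM with cisplatin, a difference of -0.58 ± 0.09 (limma adjusted p = 0.00977), or -1.60 as log2 reads. These were the 2 of the 16 that stayed called whichever of the 6 libraries was left out. Ccnb2 gave 0.520, 0.898 and 0.516 FPKM with cisplatin+PCN against 1.26, 1.56 and 1.87 FPKM with cisplatin, and differed by -0.64 (limma adjusted p = 0.0301).

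Cdc20 and Ube2c, both of the anaphase-promoting machinery, fell together. Cdc20 had 0.767, 1.75 and 1.12 FPKM in cisplatin+PCN libraries, against 2.47, 2.32 and 2.81 FPKM in cisplatin libraries, and differed by -0.70 ± 0.17 (limma adjusted p = 0.0339). Ube2c had 0.337, 0.755 and 0.577 FPKM with cisplatin+PCN against 1.22, 1.78 and 1.45 FPKM with cisplatin, and differed by -0.68 ± 0.13 (limma adjusted p = 0.0168). In both genes replicate 1 of cisplatin+PCN was the lowest of its group. Foxm1, at 0.180, 0.410 and 0.240 FPKM with cisplatin+PCN against 0.515, 0.692 and 0.772 FPKM with cisplatin, differed by -0.38 (limma adjusted p = 0.0251). Plk1, Birc5, Cenpa and Stmn1 each differed by -0.34 on the log2(FPKM + 1) scale, which shrinks the change of genes under 1 FPKM. Mean FPKM with cisplatin+PCN against cisplatin was 0.306 against 0.656 for Plk1 and 0.421 against 0.792 for Birc5. It was 0.355 against 0.724 for Cenpa and 11.6 against 14.8 for Stmn1.

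Rrm2 had the largest difference on this scale. It had 2.0, 5.15 and 3.51 FPKM in cisplatin+PCN libraries, against 5.66, 8.45 and 9.81 FPKM in cisplatin libraries, a difference of -1.01 ± 0.23 (limma adjusted p = 0.027); the highest cisplatin+PCN library came close to the lowest cisplatin library. Cdt1 had 1.79, 1.85 and 1.69 FPKM with cisplatin+PCN against 3.46, 2.59 and 3.90 FPKM with cisplatin, and differed by -0.63 (limma adjusted p = 0.0276). Mcm5 was at 0.976, 1.75 and 1.41 FPKM with cisplatin+PCN against 2.12, 2.56 and 2.80 FPKM with cisplatin, a difference of -0.56 (limma adjusted p = 0.0494). Mcm6 was unlike the other subunits in having the lowest level of the 4 groups in cisplatin+PCN kidneys, at 3.57 ± 0.0662 FPKM against 5.01 ± 0.545 FPKM with cisplatin (SD, n = 3 each), a difference of -0.39. Mcm4 and Cdk2 differed by -0.40 and -0.38, while Pcna, Mcm2, Mcm3 and Mcm7, at -0.20, -0.19, -0.33 and -0.31, did not pass.

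Mki67 and Top2a did not pass in this comparison. Mki67 had 0.138, 0.547 and 0.507 FPKM in cisplatin+PCN libraries, against 0.671, 0.865 and 0.766 FPKM in cisplatin libraries, groups that did not overlap, with a difference of -0.35 ± 0.11 (limma adjusted p = 0.0784). Top2a had 0.141, 0.658 and 0.395 FPKM with cisplatin+PCN against 0.496, 0.951 and 0.810 FPKM with cisplatin, which overlapped, and differed by -0.33 ± 0.13 (limma adjusted p = 0.143). In each, replicate 1 of cisplatin+PCN was lower than every control library.

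Of the G1 genes, the E2F, Foxm1 and retinoblastoma genes and the inhibitors, Cdk2 and Foxm1 fell in cisplatin+PCN against cisplatin and the others did not pass. Ccnd1 had 11.6, 27.3 and 13.9 FPKM with cisplatin+PCN against 16.1, 32.6 and 22.7 FPKM with cisplatin, spread widely in both groups, with a difference of -0.45 ± 0.29 (limma adjusted p = 0.355). Ccnd2 at 0.05, Ccne1 at -0.10, Cdk4 at -0.07, E2f1 at 0.03 and Rb1 at 0.08 had adjusted p-values of at least 0.463 in limma. Cdkn2b had 6.00, 4.48 and 4.79 FPKM with cisplatin+PCN against 6.26, 4.41 and 7.46 FPKM with cisplatin, a difference of -0.19 that did not pass, and Cdkn1b and Cdkn2c differed by -0.20 and -0.08. Cdkn1a had 177, 283 and 241 FPKM with cisplatin+PCN against 297, 306 and 343 FPKM with cisplatin and did not pass either, at -0.46 (limma adjusted p = 0.0691). Of the 102 further cycle genes tested, 12 fell and 0 rose, among them Cks1b by 0.84, Gins2 by 0.42 and Dbf4 by 0.39.

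The count of 16 rests on the whole design and on single libraries. It was 0 when the fit held the cisplatin+PCN and cisplatin libraries alone, with their own estimate of the spread, and 9 under either a minimum mean of 1 FPKM, which tests 29 of the genes, or no minimum at all. Without replicate 1 of cisplatin+PCN 3 genes were called, without its replicate 3 there were 2, without replicate 1 of cisplatin 7 and without its replicate 3 again 2; leaving out either replicate 2 did not cut the count to that degree. Markers moved between these groups as well. Macrophage and monocyte genes summed to 88.9, 138 and 128 FPKM with cisplatin+PCN against 152 to 183 FPKM with cisplatin. Of 11 tested, 7 differed downward and 4 upward, and only Cd14 was called, lower. Cd14 alone had 31.5, 32.8 and 27.2 FPKM of these sums with cisplatin+PCN against 57.1, 44.1 and 96.6 FPKM with cisplatin. Fibroblast genes summed to 31.5 to 54.5 FPKM with cisplatin+PCN against 58.4 to 70.0 FPKM with cisplatin, with Pdgfra lower, neutrophil genes to 4.75 to 28.7 FPKM against 21.5 to 34.5 FPKM with 0 of 4 called, and 4 of 10 kidney genes were higher. The injury marker Havcr1 had 22.8, 321 and 262 FPKM with cisplatin+PCN against 232, 493 and 297 FPKM with cisplatin and was not called. Slc34a1 had 239, 62.1 and 166 FPKM with cisplatin+PCN against 45.3, 32.9 and 35.2 FPKM with cisplatin. The part of these markers in the cell cycle differences was not tested.

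**Figure D4:**
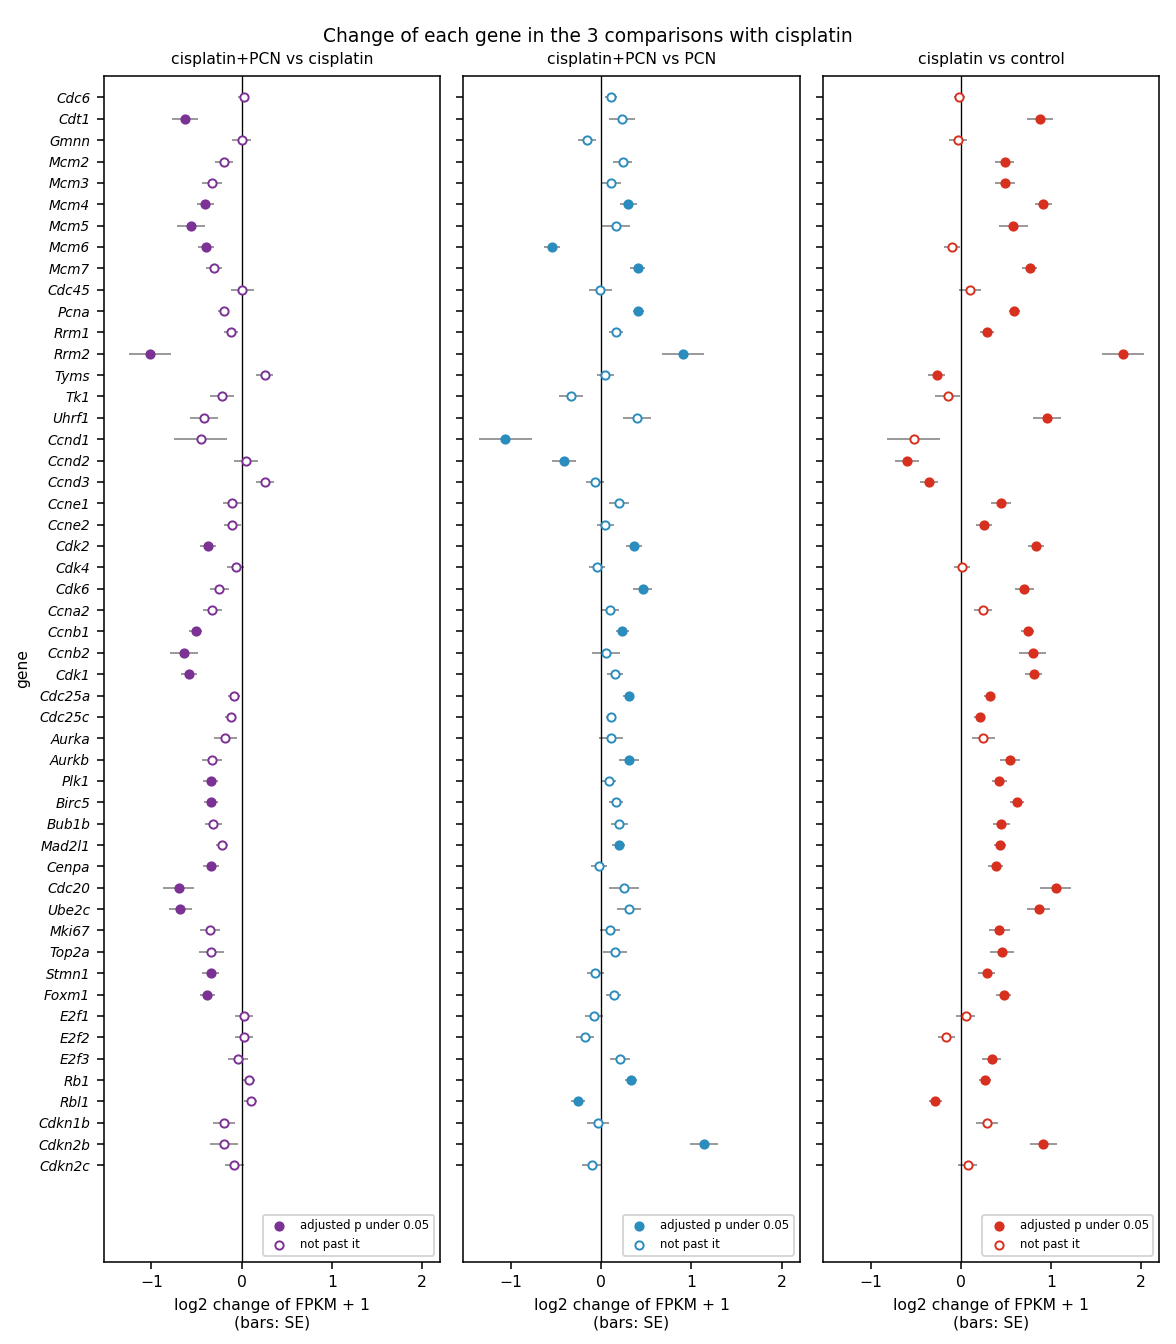
Change of each of the 51 tested genes on the log2(FPKM + 1) scale in 3 comparisons, with bars for the SE; filled points have an adjusted p under 0.05. Cisplatin+PCN against cisplatin has 16 filled points, all left of 0; cisplatin+PCN against PCN has 12 right and 4 left of 0; and cisplatin against control has 34 right and 4 left.

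Within PCN-treated kidneys, cisplatin+PCN against PCN, 12 of the 51 genes rose and 4 fell, beside 17.6% of all tested genes that rose and 18.3% that fell. The share that rose, 23.5%, was near that background, and the median difference was 0.14. The libraries of this comparison are separate from those of cisplatin against control, where 34 rose. The 12 genes that rose were Mcm4, Mcm7, Pcna, Rrm2, Cdk2, Cdk6, Ccnb1, Cdc25a, Aurkb, Mad2l1, Rb1 and Cdkn2b, and the 4 that fell were Mcm6, Ccnd1, Ccnd2 and Rbl1. Scaled to assigned reads, 12 rose and 2 fell, with Ccnd2 and Rbl1 no longer called, and 61% of all called genes were higher in place of 49.1%.

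Cdkn2b had the largest rise on the log2(FPKM + 1) scale. As log2 reads its 1.52 was below the 1.57 of Ccnb1 and the 2.26 of Aurkb, which had only 4, 11 and 1 reads with PCN. Cdkn2b had 6.00, 4.48 and 4.79 FPKM in cisplatin+PCN libraries, against 2.04, 1.61 and 1.63 FPKM in PCN libraries. The change was 1.14 ± 0.15 (limma adjusted p = 0.000213). Rrm2 had 2.0, 5.15 and 3.51 FPKM with cisplatin+PCN against 1.21, 1.45 and 1.32 FPKM with PCN, and rose by 0.91 ± 0.23 (limma adjusted p = 0.0108). Pcna had 26.4, 26.2 and 24.6 FPKM with cisplatin+PCN against 18.8, 19.9 and 18.5 FPKM with PCN, and rose by 0.41 (limma adjusted p = 0.000445). In all 3 the groups were separate. Rb1, at 7.86, 8.93 and 7.82 FPKM with cisplatin+PCN against 6.67, 6.03 and 6.24 FPKM with PCN, rose by 0.33.

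Mitotic genes mostly did not pass here. Cdk1 had 0.210, 0.541 and 0.336 FPKM in cisplatin+PCN libraries, against 0.239, 0.258 and 0.169 FPKM in PCN libraries, which overlapped, with a difference of 0.15 (limma adjusted p = 0.231). Cdc20 had 0.767, 1.75 and 1.12 FPKM with cisplatin+PCN against 0.538, 1.09 and 0.892 FPKM with PCN, a difference of 0.25 that did not pass (limma adjusted p = 0.282). Mki67 had 0.138, 0.547 and 0.507 FPKM with cisplatin+PCN against 0.226, 0.390 and 0.276 FPKM with PCN, a difference of 0.10 (limma adjusted p = 0.553). Only Aurkb and Mad2l1 of the 9 tested mitotic genes were called, by 0.31 and 0.19, while Ccnb1 rose by 0.23, or by 1.57 as log2 reads. Aurkb had 0.149, 0.560 and 0.362 FPKM with cisplatin+PCN against 0.0593, 0.190 and 0.0157 FPKM with PCN, which overlapped. With a library left out, the limma adjusted p of Aurkb, Mad2l1 and Ccnb1 reached 0.17, 0.126 and 0.0908.

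Ccnd1 was among the genes that fell. It had 11.6, 27.3 and 13.9 FPKM in cisplatin+PCN libraries, against 31.9, 35.2 and 39.9 FPKM in PCN libraries, without overlap, and fell by 1.07 on the log2 scale (limma adjusted p = 0.0155). Mcm6 had 3.56, 3.64 and 3.51 FPKM with cisplatin+PCN against 5.55, 5.46 and 6.02 FPKM with PCN, and fell by 0.55 ± 0.09 (limma adjusted p = 0.000735). Ccnd2 and Rbl1 fell by 0.41 and 0.26. Of the 16 genes called in this comparison, 9 stayed called whichever of the 6 libraries was left out: Mcm6, Mcm7, Pcna, Rrm2, Cdk2, Cdk6, Cdc25a, Rb1 and Cdkn2b. The count that fell was 1 without replicate 1 of cisplatin+PCN and 2 without its replicate 3 or without any 1 of the PCN libraries, and weighting libraries by their scatter gave 22 higher and 8 lower. Of the 102 further cycle genes tested, 18 rose (17.6%) and 14 fell (13.7%), at or below the background.

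Whether PCN altered the response to cisplatin is tested by the interaction, the change with cisplatin under PCN minus that under corn oil. In limma 0 of the 51 genes passed in either direction, against 0.0308% of all tested genes called lower and 0.0411% called higher. At an unadjusted p under 0.05 there were 19 lower and 1 higher, beside 3135 of all 19465 tested genes in either direction. Limma-voom called 0 of the 51, and 27 of all tested genes. Scaling to assigned reads again called 0 of the 51, with 13 higher and 6 lower of all tested genes in place of 8 and 6. Cdk1 and Ccnb1 had the smallest adjusted p among the 51 genes, 0.107 each, with interactions of -0.66 ± 0.13 and -0.51 ± 0.10 (log2, SE). The value for Rrm2 was -0.89, the farthest from 0 on the log2(FPKM + 1) scale, while as log2 reads Cdk1 was farthest at -2.05 and Rrm2 was at -1.04. The responses with and without PCN are therefore not shown to differ by this fit. Weighting libraries by their scatter, which leans on replicate 3 of cisplatin+PCN, called 15 lower, and leaving out replicate 2 of cisplatin or of cisplatin+PCN called 5 and 4 lower.

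Some genes share sequence with others, and the labels do not give the strand setting of the counting. In the GENCODE annotation of GRCm38, exons of 19 of the 54 genes overlap another gene, such as Cdc20 with Elovl1, Ube2c with Tnnc2, Mcm7 with Ap4m1 and Cops6, Cdk2 with Pmel and Cdk4 with Tspan31. Ccnb1, Ccnb2, Ccnd3 and Pcna have named pseudogene copies. Reads from such pairs could be assigned to either gene or to neither. The values of these genes are therefore less certain than those of Rrm2, Cdk1, Cdt1, Mcm4 or Mki67, for which no such overlap or copy was found.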

How the data were processed

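The deposited table holds FPKM values that the authors made per gene; per the submitters' processing notes the tools were HISAT2 2.0.5, featureCounts 1.5.0-p3, DESeq2 1.16.1 and edgeR 3.18.1, with no roles given. Those notes list build mm8, but 52489 of the 52636 gene IDs are in GENCODE for GRCm38, with start and end identical for 95.2% of them. FPKM times gene length, divided by its smallest nonzero value in that library, taken as 1 read, gave whole reads, within 0.001 reads, for 100% of nonzero values, 18914607 to 26530485 reads per library. Median-of-ratios factors of the deposited FPKM were 0.998 to 1.003, so that scaling could change little, and scaling to assigned reads was added after seeing the data.

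The main test was limma 3.58.1 (R 4.3.3) on log2(FPKM + 1) with trend, over 19465 genes with a mean of at least 0.1 FPKM, 4 group means in 1 fit of 12 libraries, two-sided, Benjamini-Hochberg adjusted within each of 5 comparisons. The minimum was kept low because 1 FPKM would admit genes through the group in which they are high. Simulated data showed that large changes of genes near the minimum are often missed and understated on this scale. Alternatives were other pseudocounts and minimums, array weights, a fit of only the compared groups, median-of-ratios scaling, a block for the replicate number, limma-voom on recovered reads, which called 10328 genes for cisplatin against control, and each library left out in turn.

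Genes given per library were those past the test with a change of at least 1 with cisplatin, or 0.5 in the other comparisons, and a panel of 20; Mcm4, Mcm6 and Cdkn1a values were added after they were seen. From each further list the text names up to 3 called genes with the largest change, and a gene so chosen is not reported here. The 54 genes, panel, lists and markers were chosen with earlier results of these data known. Libraries of 1 group were not duplicates, with a chi-square per gene of at least 4.972.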

Additional observations from a re-analysis of the deposited data

How the results depend on the processing

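Of the 34 genes higher with cisplatin against control, 21 were higher under a minimum of 1 FPKM in 3 libraries and 17 under a mean of at least 1 FPKM, settings that test 35 and 29 of the genes. Leaving out a library gave 30 to 34 higher and 3 to 4 lower. For the 16 genes lower in cisplatin+PCN against cisplatin, a mean of at least 1 FPKM and no minimum each gave 9, and a fit of those groups alone gave 0; leaving out a library gave 2 to 19, and 0 to 1 higher. For cisplatin+PCN against PCN, leaving out a library gave 8 to 15 higher and 1 to 5 lower. Array weights gave 22 higher and 8 lower in that comparison, and 1 higher and 22 lower in cisplatin+PCN against cisplatin. In the interaction they gave 15 lower, where the equal-weight fit called 0. The weighted fit gave replicate 3 of cisplatin+PCN a weight of 8.271, against 0.284 and 0.516 for the other 2 libraries of its group. It used gene-by-gene weights because the default estimate did not converge. Without a library the interaction gave 0 to 5 lower, with 5 without replicate 2 of cisplatin and 4 without replicate 2 of cisplatin+PCN. Scaling to assigned reads, chosen after seeing the data, gave 2 lower both with cisplatin against control and in cisplatin+PCN against PCN, with 35 and 12 higher, and 14 lower in cisplatin+PCN against cisplatin. The cause of these shifts was not tested. No direction of a called gene reversed in any setting.

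Same-numbered libraries deviated together with correlations of -0.227 to 0.304, and not every sample correlated best with its own number. Each PCN library did correlate best with the control library of its number, at 0.163, 0.118 and 0.0286. The labels do not say that the number marks a shared litter, batch or day. With 3 libraries a group, these correlations cannot decide it. With the replicate block, 33 genes were higher with cisplatin against control and 12 were lower in cisplatin+PCN against cisplatin. Bub1, Cenpf and Cdkn2a fell under the minimum mean of 0.1 FPKM and were not tested, so their changes are not judged here. Cdkn2a had at most 3 reads in any library, Bub1 had 3 to 26 and Cenpf 7 to 45.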
